A study of Mus musculus with 51 samples.

Results

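The genes described here are 41 mouse genes of DNA excision, mismatch and recombination repair, a list chosen by gene function and followed through every mammary gland (MG) and blood array of a study of ionizing radiation. Each gene was read from the probe sets annotated to its symbol alone, and where several existed the brightest on average over the MG arrays stood for it. In this way 39 of the 41 genes were measured, among 11800 genes on the arrays, with 62 probe sets between them and more than 1 probe set for 14 of them. Rad54l and Fancd2 had no probe set of their own name and were not analysed here.

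Female virgin BALB/c and C57BL/6 mice received 4 weekly whole-body fractions from 8 weeks of age, of 7.5 cGy each (LD) or 1.8 Gy each (HD), or sham exposures. The 4th mammary glands were taken 4 hr or 1 month after the last fraction, with the inguinal lymph node removed, and RNA of the whole tissue was hybridized to Affymetrix HT_MG-430A arrays. BALB/c MG comprised 3 sham, 4 LD and 4 HD arrays at 4 hr and 3 sham, 2 LD and 4 HD arrays at 1 month, and C57BL/6 MG comprised 3, 4 and 4 arrays at 4 hr and 4, 4 and 4 arrays at 1 month. Nucleated blood cells came from 4 unirradiated females of each strain at 9 weeks of age.

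Excision repair cuts out damaged bases or short damaged stretches and fills the gap. Base excision repair and single-strand break repair handle small lesions such as those that ionizing radiation leaves in great number, and nucleotide excision repair handles bulky, helix-distorting ones. Mismatch repair corrects replication errors, while the sensors Rad50, Nbn, Atm and Atr, the recombination proteins, the Fanconi anemia proteins and the Smc5/Smc6 complex act on double-strand breaks, stalled forks and cross-links.

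The promoters of 4 of the genes on which the results turn are shown for context. Each sequence covers the 250 bases before a transcript start in RefSeq for GRCm38.p6, on the plus strand, and capitals mark the motif CCAAT, found on either strand in 33.8% of the same 250 bases of all 32851 promoters and in those of 18 of the 33 measured genes with an entry. Mgmt and Ercc5 were higher, and Lig3 lower, after HD with both strains averaged, and Rad23b had the smallest p of the strain comparison. Mgmt lies at chr7:136894336-136894585, Ercc5 at chr1:44147494-44147743, Lig3 at chr11:82780859-82781108 and Rad23b at chr4:55349792-55350041. The windows of Lig3 and Rad23b end at the base before the annotated gene. That of Mgmt, the first of 2 transcript starts listed, spans the annotated start of the gene at position 136894463, and that of Ercc5 lies inside the gene, which is annotated from position 44146948.
Mgmt: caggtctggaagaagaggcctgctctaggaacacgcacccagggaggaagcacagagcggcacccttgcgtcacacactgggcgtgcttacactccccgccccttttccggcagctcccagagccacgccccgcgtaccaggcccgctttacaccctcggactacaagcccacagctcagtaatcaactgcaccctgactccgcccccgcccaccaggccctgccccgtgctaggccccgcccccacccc
Ercc5: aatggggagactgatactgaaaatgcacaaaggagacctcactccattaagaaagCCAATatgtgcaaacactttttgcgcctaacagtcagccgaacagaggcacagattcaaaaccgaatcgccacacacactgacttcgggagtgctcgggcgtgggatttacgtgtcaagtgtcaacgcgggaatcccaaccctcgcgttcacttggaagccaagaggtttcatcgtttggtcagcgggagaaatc
Lig3: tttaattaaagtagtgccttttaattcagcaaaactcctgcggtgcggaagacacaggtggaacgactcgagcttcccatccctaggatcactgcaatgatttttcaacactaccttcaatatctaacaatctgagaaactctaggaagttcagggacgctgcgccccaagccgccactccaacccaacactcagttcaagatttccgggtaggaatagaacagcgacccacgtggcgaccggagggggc
Rad23b: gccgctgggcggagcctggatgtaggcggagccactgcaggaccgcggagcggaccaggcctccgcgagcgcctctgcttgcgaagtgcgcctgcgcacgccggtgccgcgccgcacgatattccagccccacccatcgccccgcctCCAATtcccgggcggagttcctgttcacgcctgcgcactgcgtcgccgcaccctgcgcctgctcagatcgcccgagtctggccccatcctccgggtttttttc
The letters of CCAAT were found in the windows of Ercc5 and Rad23b, and were not found in those of Mgmt and Lig3. The p53 half-site was present in 7.13% of all promoters and in those of Fanca and Fancg among the repair genes, and the E2F letters TTTCCCGC, TTTCGCGC, TTTGCCGC or TTTGGCGC, on either strand, were present in 1.86% of all promoters and in those of Brca2, Fancg, Msh3, Msh5 and Nthl1. Such matches are letters in a window and were not tied to any difference below.

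All values are log2 signals after RMA, the authors' normalization, and a difference of 1 is a 2-fold change. Array medians lay between 6.161 and 6.357 in MG and between 4.613 and 4.705 in blood, so levels were compared within a tissue only, and the number of arrays limits the precision. Markers of white adipocytes, fibroblasts, luminal epithelium and macrophages were among the bright probe sets of MG, and those of B cells, T cells, macrophages and erythroid cells among those of blood. Skeletal muscle genes stood more than 2 log2 units above the median MG array on 5 arrays (C57BL/6 sham 1 month replicate 2, BALB/c sham 4 hr replicate 1, LD 4 hr replicate 2, HD 4 hr replicate 1 and HD 1 month replicate 3), epidermis and hair genes on BALB/c LD 4 hr replicate 1, and B and T cell genes on BALB/c HD 1 month replicate 1. Hepatocyte genes stood above the median blood array by 3.31 log2 units on blood BALB/c replicate 2 and by 9.21 on blood C57BL/6 replicate 4. On the latter their mean was 13.15, against a median of 3.94 over the blood arrays. In RNA of whole tissue, fewer cells of a type and less RNA per cell cannot be told apart. Each strain's MG had a plate of its own, and sham arrays lay in other plate columns than most irradiated arrays, so strain and plate in MG cannot be told apart, nor can dose and plate position be cleanly separated. In blood, BALB/c lay in plate columns 2 to 5 and C57BL/6 in columns 6 to 9. Strain and plate position cannot be told apart there either.

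The first comparison asked which repair genes differed between the strains without irradiation. In sham MG, BALB/c had a lower signal of Rad23b, Fancc and Wrn and a higher signal of Smc6 and Rad50 than C57BL/6. These 5 of the 39 genes passed an adjusted p under 0.05 in limma, 2 higher and 3 lower in BALB/c, beside 8.83% of all genes. An unadjusted p under 0.05 was reached by 11 of them, beside 23.2% of all genes. The median difference of the 39 genes was 0.04, beside 0.01 for all genes. The strains were set against each other at 4 hr and at 1 month apart, and the mean of these 2 differences was tested.

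Rad23b encodes the partner of Xpc in damage recognition of nucleotide excision repair. Its signal was 7.48, 7.40 and 7.48 in BALB/c sham MG at 4 hr and 7.51, 7.54 and 7.30 at 1 month, and 8.18, 8.30 and 8.32 in C57BL/6 at 4 hr and 8.07, 8.42, 8.35 and 8.18 at 1 month. Every BALB/c array lay below every C57BL/6 array. The log2 difference was -0.81 (SE 0.07, adjusted p = 1.19e-05), a 1.75-fold lower signal in BALB/c. Fancc, a member of the Fanconi anemia core complex, read 4.86, 4.98 and 4.94 at 4 hr and 5.12, 5.13 and 5.15 at 1 month in BALB/c, against 5.45, 5.50 and 5.58 and then 5.61, 5.47, 5.77 and 5.74 in C57BL/6. The strains again did not overlap, and the log2 difference was -0.55 (SE 0.06, adjusted p = 1.05e-04).

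Smc6, the partner of Smc5 in the complex that handles recombination intermediates, differed the other way. It read 7.71, 7.93 and 6.996 at 4 hr and 7.68, 7.38 and 7.52 at 1 month in BALB/c sham MG, against 6.43, 6.33 and 6.86 and then 6.85, 6.82, 6.39 and 6.63 in C57BL/6. All BALB/c arrays were above all C57BL/6 arrays, with BALB/c 4 hr replicate 3 nearest to them. Rad23b, Fancc and Smc6 were the 3 of the 39 genes without overlap between the strains, beside 3.82% of all genes. For Smc6 the log2 difference was 0.93 (SE 0.15, adjusted p = 0.00184). Smc5 did not share it, at -0.01 (SE 0.08). Wrn, a RecQ helicase and exonuclease, read 6.26, 5.96 and 5.86 and then 6.20, 5.55 and 5.82 in BALB/c and 6.54, 6.59 and 6.50 and then 6.47, 6.18, 6.62 and 6.63 in C57BL/6. The strains overlapped, because C57BL/6 1 month replicate 2 lay below the highest BALB/c arrays, and the log2 difference was -0.57 (SE 0.11, adjusted p = 0.0078). These 4 calls held with each of the 13 arrays left out in turn.

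Rad50, a subunit of the Mre11 complex that tethers broken ends, was the smallest of the called differences. It read 7.99, 8.00 and 7.85 and then 8.16, 8.00 and 7.83 in BALB/c, and 7.51, 7.69 and 7.58 and then 7.82, 7.94, 7.84 and 7.91 in C57BL/6. Only the 4 hr arrays were apart, and the log2 difference of 0.24 (SE 0.07, adjusted p = 0.0449) lost its call without any of 10 arrays. These were C57BL/6 sham 4 hr replicates 1 and 3, C57BL/6 sham 1 month replicates 1, 2, 3 and 4, BALB/c sham 4 hr replicates 1 and 2 and BALB/c sham 1 month replicates 1 and 2, and the adjusted p without 1 of them ran from 0.0541 to 0.104. With both probe sets of Rad50 averaged the difference was 0.075 (adjusted p = 0.477). It was 0.24 without the arrays that held transcripts of another tissue (adjusted p = 0.0978) and 0.24 with all 43 MG arrays in the fit (adjusted p = 0.157).

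The irradiated MG arrays, 14 of BALB/c and 16 of C57BL/6 on the same plates, gave the strain comparison in mice that the sham comparison did not use. It was added after the sham result was seen. All 5 genes were called again in the same direction, among 14 called genes (11 higher and 3 lower in BALB/c), beside 26.3% of all genes. Rad23b had a lowest, median and highest value of 7.04, 7.34 and 7.67 in BALB/c and 7.60, 8.14 and 8.37 in C57BL/6, and differed by -0.74 (SE 0.07, adjusted p = 6.08e-09). The ranges met at C57BL/6 HD 1 month replicate 4, which lay below the highest BALB/c array. Smc6 ran from 7.27 through 7.62 to 8.35 in BALB/c and from 6.12 through 6.89 to 7.25 in C57BL/6, with no overlap and a difference of 0.75 (SE 0.08, adjusted p = 4.03e-08), beside 1.34% of all genes without overlap.

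Fancc differed by -0.53 (SE 0.09, adjusted p = 4.95e-05), Wrn by -0.31 (SE 0.08, adjusted p = 0.00467) and Rad50 by 0.44 (SE 0.08, adjusted p = 1.56e-04). The ranges of Fancc overlapped, with a highest value of 5.32 in BALB/c and a lowest of 5.13 in C57BL/6. Genes that joined them were Fancl, the ubiquitin ligase subunit of the Fanconi anemia core (0.48, SE 0.08, adjusted p = 6.24e-05), and Msh3, the MutS homolog for insertion and deletion loops (0.34, SE 0.07, adjusted p = 2.97e-04). Brca1, central to recombination and dim in MG, differed by 0.23 (SE 0.06, adjusted p = 0.0023) and the checkpoint kinase Atr by 0.24 (SE 0.06, adjusted p = 0.00355). Xpa, Rad52, Pms2, Mutyh and Parp1 made up the rest and were all higher in BALB/c. With all probe sets of a gene averaged, Msh3 fell to 0.09 (adjusted p = 0.0532) and Brca1 to 0.07 (adjusted p = 0.181).

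**Figure D1:**
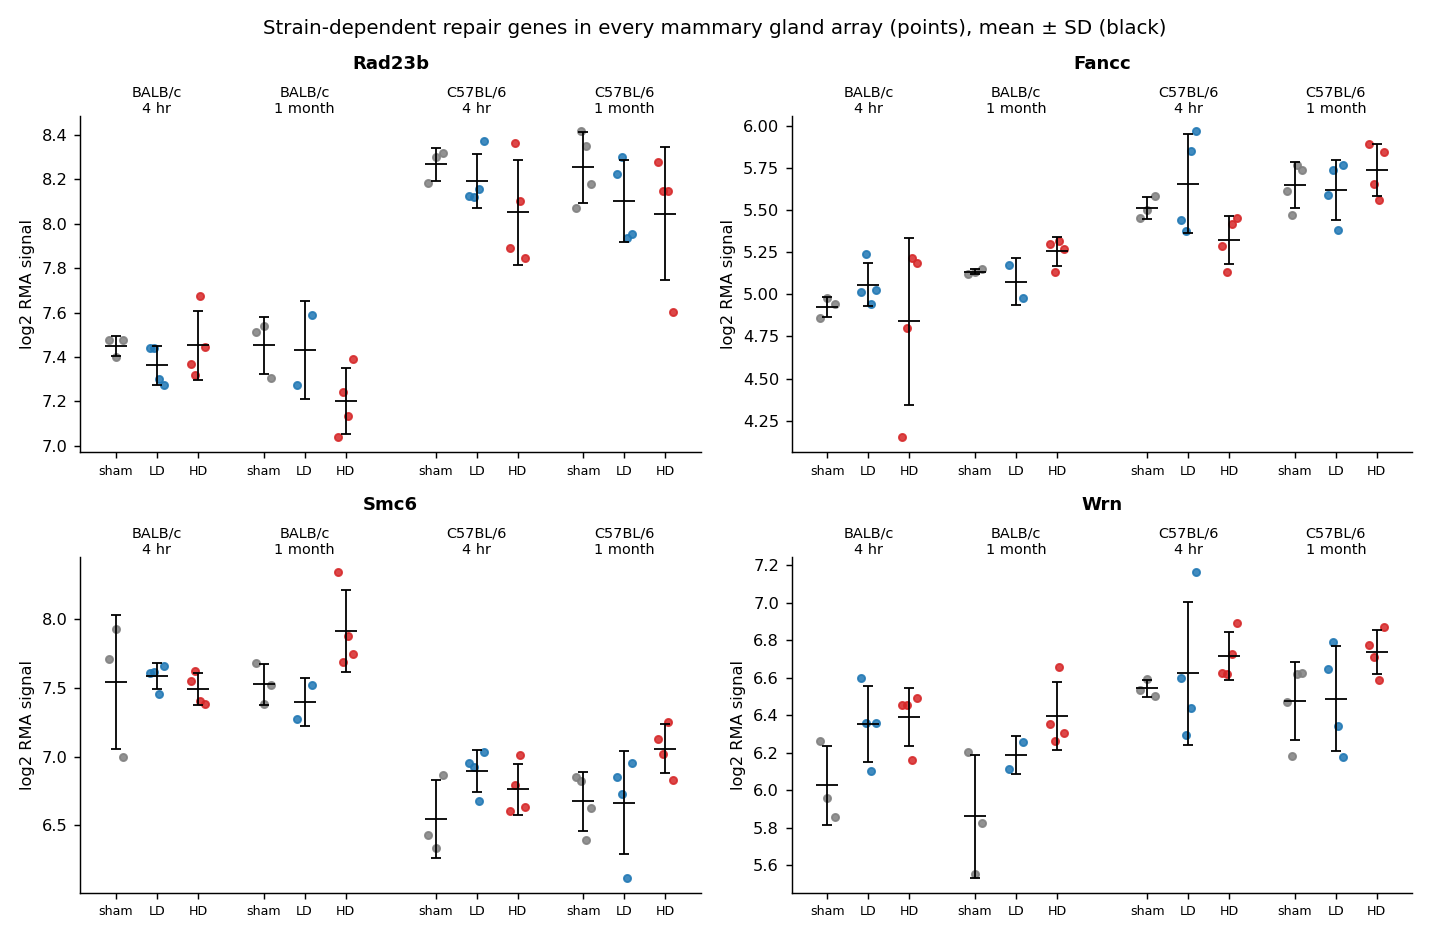
Log2 RMA signal (y axes) of Rad23b, Fancc, Smc6 and Wrn in each of the 43 MG arrays (points; grey sham, blue LD, red HD), by strain, time and dose (x axes), with black bars for the group mean ± SD. Rad23b and Fancc sat lower and Smc6 higher in BALB/c at every dose and time, and Wrn overlapped between the strains.

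In blood, Smc6 alone of the 39 genes was called, beside 0.441% of all genes, and 8 had an unadjusted p under 0.05, beside 8.54% of all genes. Both counts include the arrays with hepatocyte transcripts, which were strongest on C57BL/6 replicate 4, 1 of only 4 arrays of that strain. The calls and non-calls of all 39 genes in blood are limited by this. Smc6 read 7.15, 8.36, 8.16 and 7.95 in BALB/c and 5.92, 5.73, 5.55 and 4.99 in C57BL/6. The strains were far apart on every array, and the difference of 2.36 (SE 0.30, adjusted p = 0.0199) is 5.13-fold. With 8 arrays in all, the adjusted p rose to 0.0703, 0.0962 and 0.0937 without BALB/c replicates 2, 3 and 4 and to 0.0759 and 0.0804 without C57BL/6 replicates 2 and 3. With the plate column as a covariate, which the strains did not share in blood, the difference was 2.21 (SE 0.65, adjusted p = 0.863).

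Rad23b in blood read 4.40, 5.07, 4.70 and 4.68 in BALB/c and 5.46, 4.91, 5.42 and 7.86 in C57BL/6. The last value came from the array with hepatocyte transcripts, and the strains overlapped. The difference was -1.20 (SE 0.59, adjusted p = 0.686) with all arrays and -0.55 (SE 0.18, adjusted p = 0.177) without C57BL/6 replicate 4. Fancc, at -0.02 (SE 0.11), and Wrn, at -0.10 (SE 0.14), were not called in blood, and whether MG and blood differed in them was not tested. Fancl (0.55, SE 0.13, adjusted p = 0.183), Atr (0.49, SE 0.13, adjusted p = 0.277), Rad52 (0.37, SE 0.10, adjusted p = 0.279) and Xpc (0.39, SE 0.12, adjusted p = 0.381) had no overlap between the strains in blood and did not pass the test. In all 7 of the 39 genes did not overlap there, beside 7.15% of all genes.

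**Figure D2:**
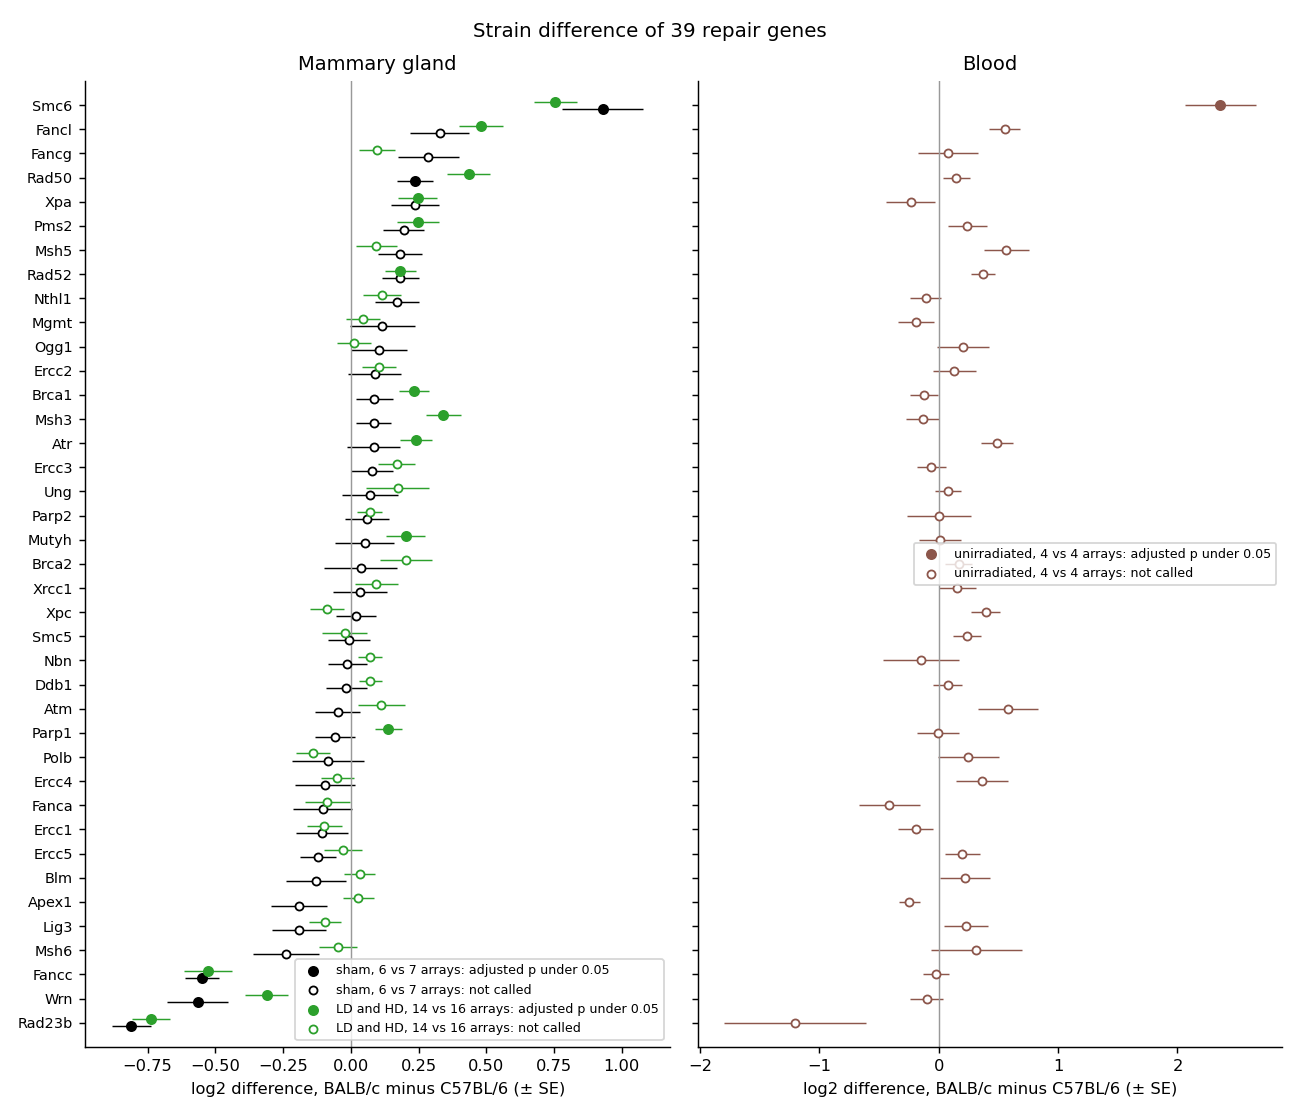
Log2 difference of BALB/c minus C57BL/6 (x axes, ± SE) for the 39 measured repair genes (y axis), in MG (sham arrays black, irradiated arrays green) and in blood (brown), with filled points at an adjusted p under 0.05. Rad23b, Wrn and Fancc lay lowest and Smc6 highest in MG, and Smc6 stood alone in blood at 2.36.

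Msh5 and Smc6 each had a second, dimmer probe set. For Msh5, and for Smc6 in sham MG, the choice of probe set decided the call. Msh5 encodes a MutS homolog of meiotic recombination. Its brighter probe set read 5.23, 5.41 and 5.47 and then 5.21, 5.39 and 5.23 in BALB/c sham MG, against 5.13, 5.34 and 4.91 and then 5.11, 5.22, 5.26 and 5.02 in C57BL/6. The strains overlapped, and the difference was 0.18 (SE 0.08, adjusted p = 0.195). In blood this probe set read 5.20, 4.89, 5.35 and 4.80 in BALB/c and 4.59, 4.84, 4.44 and 4.10 in C57BL/6, a difference of 0.56 (SE 0.19, adjusted p = 0.423).

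The dimmer Msh5 probe set read 4.92, 5.69 and 5.002 and then 5.09, 5.20 and 5.34 in BALB/c sham MG and 4.46, 4.33 and 4.68 and then 4.32, 4.22, 4.61 and 4.32 in C57BL/6. All BALB/c arrays were higher, and the difference was 0.78 (SE 0.12, adjusted p = 0.0017). In blood it read 4.78, 5.50, 5.48 and 4.96 in BALB/c and 3.55, 3.59, 3.55 and 3.42 in C57BL/6, and the difference was 1.65 (SE 0.18, adjusted p = 0.00822). The irradiated MG arrays gave 0.76 (SE 0.08, adjusted p = 5.78e-08) at this probe set and 0.09 (SE 0.08, adjusted p = 0.401) at the brighter one. For Smc6 the dimmer probe set differed in the same direction by less, at 0.23 (SE 0.11, adjusted p = 0.221) in sham MG, 0.38 (SE 0.08, adjusted p = 5.91e-04) in irradiated MG and 0.74 (SE 0.11, adjusted p = 0.042) in blood. In blood the C57BL/6 values of the dimmer probe sets, 3.42 to 3.59 for Msh5 and 3.06 to 3.30 for Smc6, lay within or below the range of the array means of skeletal muscle markers (3.58 to 3.73), and in MG those of both genes lay near the 4.47 of these markers. The C57BL/6 signal was thus not shown to be above background there, and the sizes of these differences are uncertain. For Smc6 the BALB/c medians at this probe set, 4.76 in sham and 4.72 in irradiated MG, were also near 4.47.

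**Figure D3:**
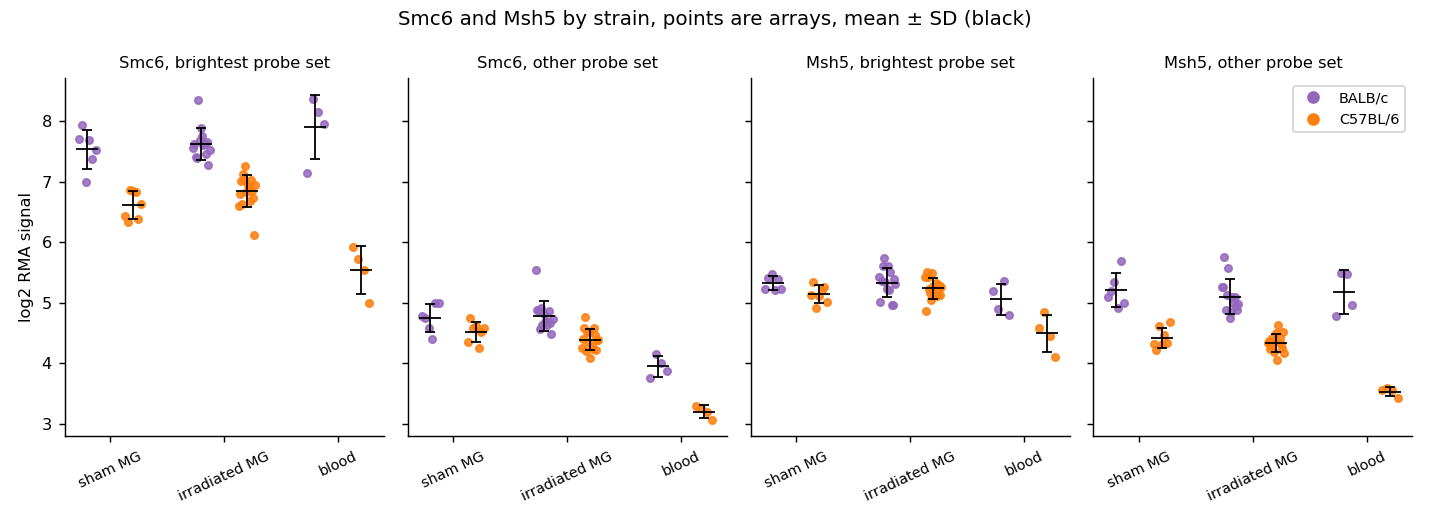
Log2 RMA signal (y axis) at both probe sets of Smc6 and of Msh5 in each array (points; purple BALB/c, orange C57BL/6) of sham MG, irradiated MG and blood (x axes), with black bars for mean ± SD. BALB/c was apart from C57BL/6 at the brighter Smc6 and the dimmer Msh5 probe set in all 3 sets of arrays, and the strains overlapped in MG at the brighter Msh5 probe set.

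The dimmer probe sets of Wrn differed by -0.35 (SE 0.11, adjusted p = 0.0787) and -0.14 (SE 0.07, adjusted p = 0.283) in sham MG. That of Rad50 differed by -0.09 (SE 0.06, adjusted p = 0.421), opposite in sign to the brighter one. Rad23b and Fancc had a single probe set each, so no second probe set could be set beside their differences. Whether the probes read the transcripts of both strains alike was not tested.

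The next comparisons asked how LD changed the repair genes. In comparisons of doses or times, a lack of overlap is described per gene only. The share of all genes without overlap there is not given. After LD none of the 39 genes was called by limma in either strain at either time, and none of the 11800 genes was. At an unadjusted p under 0.05, limma gave 3 repair genes in BALB/c at 4 hr (beside 9.18% of all genes), 3 in C57BL/6 at 4 hr (4.54%), 7 in BALB/c at 1 month (6.39%) and 6 in C57BL/6 at 1 month (12.6%). The study's own rule for LD asked for a log2 fold change beyond 0.58 in either direction and a p-value below 0.1, taken here as unadjusted because the sources used here do not say. No repair gene met it in any of the 4 comparisons, beside 1.52%, 0.356%, 1.13% and 1.96% of all genes.

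At 4 hr the smallest p in BALB/c belonged to Msh3, which read 6.61, 6.67, 6.80 and 6.77 after LD and 6.22, 6.42 and 6.19 in sham. The LD arrays were all above the sham arrays, and the log2 fold change was 0.44 (SE 0.14, adjusted p = 0.298). Xpa, the damage verifier of nucleotide excision repair (0.26, SE 0.11), Wrn (0.33, SE 0.15) and Brca2, a recombination mediator (-0.25, SE 0.13), followed. In C57BL/6 they were Polb, the gap-filling polymerase of base excision repair (0.36, SE 0.14), Ercc2, a TFIIH helicase (-0.27, SE 0.12), Ercc5 (0.26, SE 0.12) and Smc6 (0.35, SE 0.17), with adjusted p from 0.962 to 0.994.

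At 1 month after LD, the 6 measured genes of a subset linked to the cell cycle (Brca1, Brca2, Blm, Fanca, Msh6 and Ung) all had positive log2 fold changes in BALB/c, where LD had 2 arrays, with a median of 0.39, beside 0.03 over all genes. Brca1, Blm and Fanca were dim, with mean signals of 4.33, 4.55 and 4.39 over the MG arrays, near the median array mean of 4.47 for skeletal muscle markers and 4.45 for B cell markers, so the sizes of their differences are uncertain. Brca1 read 4.71 and 4.53 against 4.24, 4.25 and 4.08 in sham, a log2 fold change of 0.43 (SE 0.13, adjusted p = 0.57). Brca2 (0.42, SE 0.15), Rad50 (0.39, SE 0.14) and Msh6 (0.48, SE 0.19) came next, with adjusted p of 0.649, 0.649 and 0.66, so none passed. The LD arrays were not alike in all of them. Ung read 5.68 and 7.09 after LD against 6.09, 6.31 and 6.302 in sham, so that 1 LD array lay below and 1 above all sham arrays, and Msh6 ran from 0.16 to 0.81 with 1 array left out. In C57BL/6 the same 6 genes had a median of -0.11, and Lig3 had the smallest p at -0.51 (SE 0.13, adjusted p = 0.175), before Brca1 (0.24, SE 0.10), Ung (-0.44, SE 0.19) and Ercc5 (-0.24, SE 0.11). Genes of mitosis and proliferation, 11 of them measured, had medians of 0.01 in BALB/c and -1.06 in C57BL/6 at this time, with none called. Over the 43 MG arrays, after removal of group means, Brca1 and Ung had correlations of 0.07 and -0.07 with the mean of these genes. The correlations of Brca2, Blm, Fanca and Msh6 lay between 0.41 and 0.55.

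The HD comparisons asked the same at the higher dose and share their sham arrays with LD. At 4 hr after HD, Mgmt, which removes alkyl groups from guanine by direct reversal, was higher in both strains, and Ercc5, the XPG endonuclease of nucleotide excision repair, was higher in BALB/c. In BALB/c these were 2 of the 39 genes, both higher, beside 5.91% of all genes, with 10 at an unadjusted p under 0.05 (22.5% of all genes). In C57BL/6 it was Mgmt alone, beside 0.873% of all genes, with 9 at an unadjusted p under 0.05 (13.8% of all genes). The medians over the 39 genes were -0.01 and 0.04, beside -0.00 and -0.01 over all genes. For HD the study's rule lowered the p-value, again taken as unadjusted, to below 0.01 at the same fold change, and Ercc5 met it in BALB/c and Mgmt in C57BL/6, beside 4.24% and 2.19% of all genes.

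Mgmt read 5.64, 6.01, 5.79 and 5.44 in BALB/c HD MG at 4 hr, 4.98, 5.41, 5.30 and 5.13 after LD and 4.98, 5.09 and 5.39 in sham. All HD arrays were above all sham and LD arrays, HD replicate 4 by little. The log2 fold change over sham was 0.57 (SE 0.14, adjusted p = 0.0309), or 1.48-fold, and the call was lost without HD replicates 2 or 3 or sham replicates 1 or 2 (adjusted p of 0.0718, 0.0811, 0.127 and 0.105). In C57BL/6 it read 5.80, 5.88, 5.58 and 5.92 after HD, 5.28, 4.90, 5.26 and 5.30 after LD and 5.06, 5.15 and 5.21 in sham. HD again stood apart from both, and the log2 fold change over sham was 0.66 (SE 0.14, adjusted p = 0.0219), or 1.58-fold. The adjusted p was 0.0629, 0.064 and 0.052 without HD replicates 1, 2 and 4 and 0.13, 0.0683 and 0.0563 without sham replicates 1, 2 and 3. Mgmt was rather dim, with a mean signal of 5.31 over the MG arrays, above that of 38.7% of probe sets. This lay above the median array mean of 4.47 for skeletal muscle markers and below the 5.73 for hepatocyte markers. The sizes of its differences are therefore uncertain.

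Ercc5 read 7.49, 7.53, 7.27 and 7.26 in BALB/c after HD, 6.84, 7.06, 6.81 and 7.03 after LD and 6.69, 6.92 and 6.80 in sham. HD did not overlap with either, and the log2 fold change over sham was 0.59 (SE 0.14, adjusted p = 0.024). It had an adjusted p of 0.0513 without HD replicate 2 and 0.092 without sham replicate 1, the sham array with muscle transcripts. Without the arrays that held transcripts of another tissue, the log2 fold changes in BALB/c were 0.50 (adjusted p = 0.0778) for Ercc5 and 0.51 (adjusted p = 0.134) for Mgmt. In C57BL/6 Ercc5 read 7.18, 6.96, 7.39 and 7.30 after HD and 6.99, 6.76 and 6.70 in sham, with an overlap and a log2 fold change of 0.39 (SE 0.12, adjusted p = 0.141).

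HD was also set directly against LD, without the sham arrays. In BALB/c at 4 hr 4 of the 39 genes were called, beside 7.89% of all genes, with Mgmt and Ercc5 higher and Polb and Lig3 lower after HD. Polb read 6.49, 6.29, 6.47 and 6.22 after HD and 7.40, 6.85, 7.11 and 7.13 after LD, with sham at 6.45, 6.93 and 7.10. HD lay below LD throughout and overlapped with sham, and the difference from LD was -0.76 (SE 0.14, adjusted p = 0.00466). Lig3, the ligase that seals nicks together with Xrcc1, read 7.05, 7.06, 7.09 and 6.85 after HD, 7.52, 7.40, 7.28 and 7.54 after LD and 7.50, 7.25 and 7.43 in sham. HD was below both, with -0.42 (SE 0.10, adjusted p = 0.0191) against LD and -0.38 (SE 0.11, adjusted p = 0.0517) against sham. Without HD replicate 4 or LD replicates 1 or 4, its difference from LD had an adjusted p of 0.059, 0.0587 and 0.0646. It was -0.21 (adjusted p = 0.0843) with all probe sets averaged, -0.35 (adjusted p = 0.0523) after quantile normalization and -0.41 (adjusted p = 0.177) without the arrays that held transcripts of another tissue.

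Against LD, Mgmt differed by 0.52 (SE 0.13, adjusted p = 0.0264) and Ercc5 by 0.46 (SE 0.13, adjusted p = 0.0395) in BALB/c. The call of Mgmt was lost without HD replicates 2 or 3 or LD replicates 1 or 4 (adjusted p from 0.0757 to 0.0862), and that of Ercc5 without any 1 of the 8 arrays, HD replicates 1 to 4 and LD replicates 1 to 4 (adjusted p from 0.0527 to 0.102). Ercc5 was at 0.43 (adjusted p = 0.126) without the arrays that held transcripts of another tissue. In C57BL/6 Mgmt alone was called against LD, at 0.61 (SE 0.13, adjusted p = 0.0171), beside 1.58% of all genes. It was lost without HD replicates 1 or 2 or LD replicate 2 (adjusted p of 0.0636, 0.0582 and 0.0993).

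**Figure D4:**
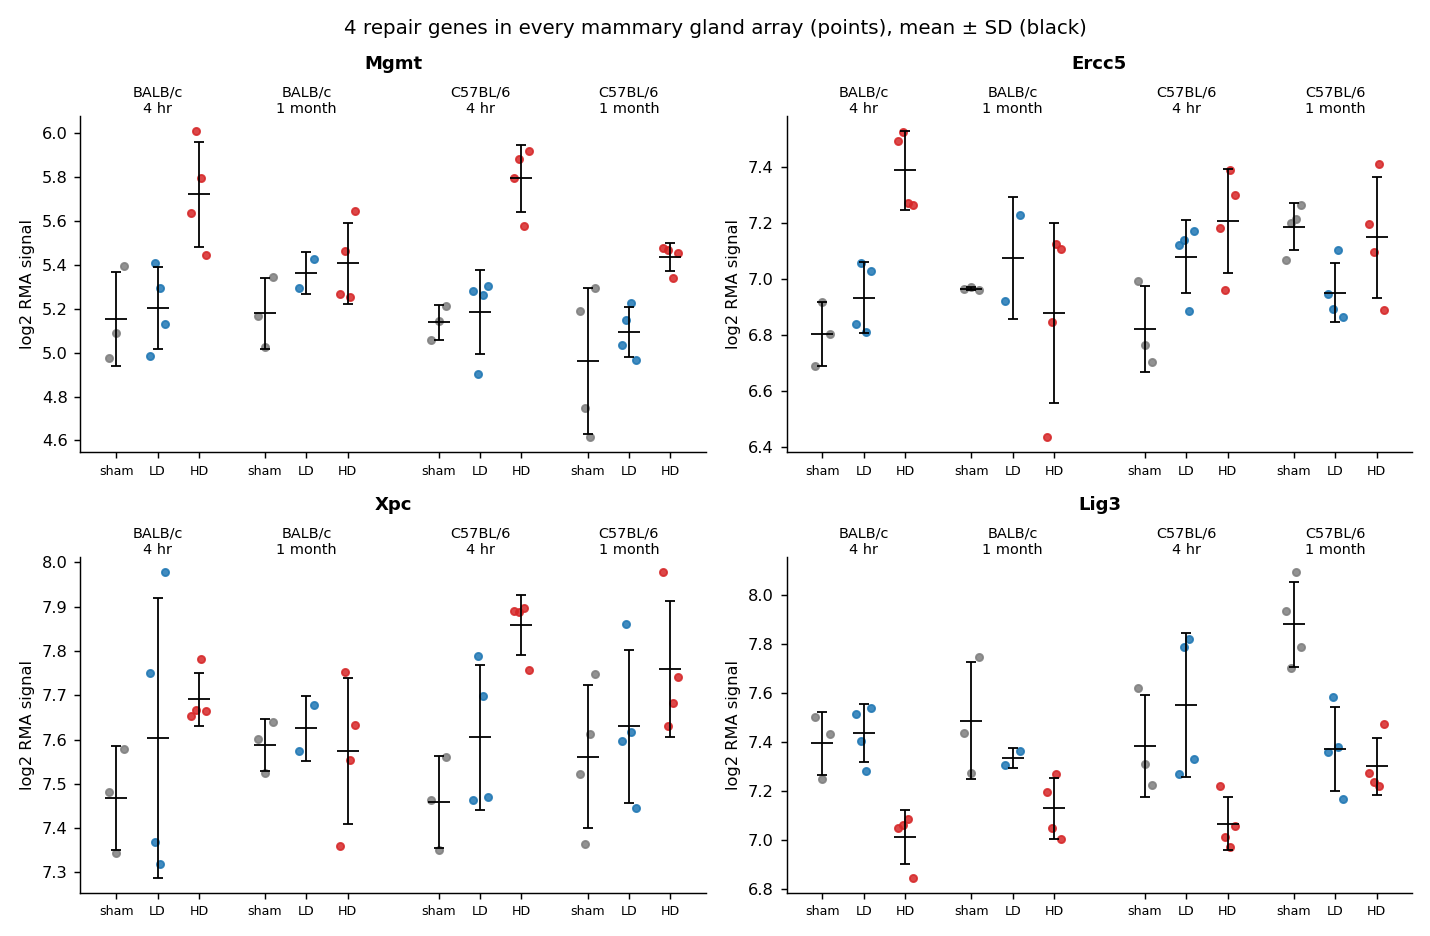
Log2 RMA signal (y axes) of Mgmt, Ercc5, Xpc and Lig3 in each of the 43 MG arrays (points; grey sham, blue LD, red HD), by strain, time and dose (x axes), with black bars for the group mean ± SD. At 4 hr Mgmt after HD lay above, and Lig3 after HD below, all sham arrays of its strain, and LD overlapped with sham for all 4 genes.

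Whether the strains differed in their response to HD at 4 hr was tested in limma, as the difference of the responses over all 43 MG arrays. None of the 39 and none of the 11800 genes was called, and 3 of the 39 had an unadjusted p under 0.05, beside 5.89% of all genes. These were Polb (-0.60, SE 0.21, adjusted p = 0.678), Fancg (-0.55, SE 0.20, adjusted p = 0.73) and Msh3 (0.36, SE 0.17, adjusted p = 0.798), as the BALB/c response minus that of C57BL/6. For LD at 4 hr there was none at an unadjusted p under 0.05 (3.81% of all genes), with the smallest p for Fancg (-0.41, SE 0.20), Msh3 (0.26, SE 0.17), Fanca (-0.35, SE 0.23) and Msh5 (-0.28, SE 0.20). For LD at 1 month there were 6 (8.17% of all genes), led by Ogg1 (-0.64, SE 0.20, adjusted p = 0.371), Ddb1 (0.36, SE 0.14), Msh6 (0.62, SE 0.24) and Brca2 (0.67, SE 0.30), none called. For HD at 1 month there was none (5.28% of all genes), with Msh3 (0.33, SE 0.17), Parp1 (0.25, SE 0.14), Atr (0.31, SE 0.17) and Fancl (0.36, SE 0.22) first.

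The response of both strains was then averaged with equal weight, a comparison added after Mgmt and Ercc5 had been seen to share their sign. It used the same arrays, so its calls are not independent of those above. At 4 hr after HD it called 6 of the 39 genes, 4 higher and 2 lower, a share near the 12.9% of all genes. Nucleotide excision repair held 2 of them among 9 measured genes, Ercc5 (0.49, SE 0.09, adjusted p = 6.14e-04) and Xpc, the lesion sensor (0.31, SE 0.09, adjusted p = 0.0163). Direct reversal held Mgmt (0.61, SE 0.10, adjusted p = 1.39e-04). Of the 4 mismatch repair genes, Msh6, which recognizes base mismatches, was higher (0.40, SE 0.11, adjusted p = 0.0167) and Pms2, a mismatch repair endonuclease, was lower (-0.34, SE 0.10, adjusted p = 0.0259). Of the 10 genes of base excision and single-strand break repair, Lig3 was lower (-0.35, SE 0.09, adjusted p = 0.00993).

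Xpc read 7.65, 7.67, 7.78 and 7.66 after HD and 7.48, 7.34 and 7.58 in sham in BALB/c, and 7.89, 7.89, 7.90 and 7.76 after HD and 7.46, 7.35 and 7.56 in sham in C57BL/6. HD did not overlap with sham in either strain. Lig3 in C57BL/6 read 7.22, 7.01, 6.97 and 7.06 after HD and 7.62, 7.31 and 7.22 in sham, where the highest HD array and the lowest sham array were equal to 2 decimals and the HD array was the lower. Of its other probe sets, the second brightest differed by -0.48 (SE 0.12, adjusted p = 0.0107) in both strains together, and the remaining 3 lay between -0.10 and 0.06. With all probe sets averaged the difference was -0.18 (adjusted p = 0.0509).

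Msh6 read 7.68, 7.78, 7.89 and 7.83 after HD and 7.65, 7.28 and 7.34 in sham in BALB/c, and 8.08, 7.64, 7.99 and 8.02 after HD and 7.38, 7.49 and 7.67 in sham in C57BL/6. It was above sham on every BALB/c array and overlapped in C57BL/6, and its adjusted p was 0.0528 without C57BL/6 sham replicate 1. Pms2 read 6.12, 6.26, 6.301 and 6.06 after HD and 6.54, 6.59 and 6.43 in sham in BALB/c, and 5.93, 5.47, 5.87 and 5.98 after HD and 6.26, 6.21 and 6.00 in sham in C57BL/6. HD was below sham throughout, and the adjusted p was 0.0622 and 0.0736 without C57BL/6 HD replicate 2 and sham replicate 1, and 0.052, 0.0526 and 0.0596 without BALB/c HD replicate 4 and sham replicates 1 and 2. After quantile normalization Pms2 was at -0.26 (adjusted p = 0.0925).

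With the plate column of each array as a covariate, which treatment largely shares, none of the calls of HD against sham at 4 hr remained. In both strains together Mgmt was then at 0.35 (adjusted p = 0.229), Ercc5 at 0.47 (adjusted p = 0.0832), Lig3 at -0.33 (adjusted p = 0.244), Xpc at 0.27 (adjusted p = 0.345), Msh6 at 0.16 (adjusted p = 0.701) and Pms2 at -0.36 (adjusted p = 0.261). Dose and plate position cannot be told apart against sham. The same holds against LD. At 4 hr HD arrays lay in plate columns 6 to 8 and LD arrays in columns 9 to 12. With the same covariate the differences from LD did not shrink, which cannot separate dose from plate position. In BALB/c Ercc5 kept its call at 0.68 (adjusted p = 0.0374), and Mgmt was at 0.68 (adjusted p = 0.0579), Polb at -0.81 (adjusted p = 0.0509) and Lig3 at -0.48 (adjusted p = 0.0947). In C57BL/6 Mgmt was at 0.79 (adjusted p = 0.0612).

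None of the 4 sensor and kinase genes, the 5 recombination and RecQ genes, the 4 Fanconi anemia genes or the 2 Smc genes was called at 4 hr after HD in either strain or in both together. Rad50 (0.21, SE 0.10), Nbn, Atm and Atr all had small positive values in both strains together, with a median of 0.09, beside -0.00 over all genes. The 6 genes linked to the cell cycle had medians of -0.03 in BALB/c and -0.17 in C57BL/6, while the mitosis and proliferation genes had medians of -1.15 and -0.84, with none of 11 called in either strain (9 and 0 at an unadjusted p under 0.05, of which Bub1 was positive in BALB/c at 0.44).

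Targets of p53 served as a check that HD reached the glands. Of 11 measured, 9 were called higher in BALB/c and 6 in C57BL/6 at 4 hr after HD, with medians of 1.06 and 0.90. Of all genes, 5.91% and 0.873% were called there in either direction. Cdkn1a, the cell cycle inhibitor, had log2 fold changes of 3.36 (SE 0.31) and 2.54 (SE 0.42) and Mdm2, the p53 ubiquitin ligase, of 1.10 (SE 0.09) and 1.16 (SE 0.11). The lowest of the 11 were at -0.46 in BALB/c and 0.053 in C57BL/6.

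Markers of luminal epithelium moved with HD at 4 hr. Of 10 measured, 8 were called lower in BALB/c and 1 in C57BL/6, and their mean per array ran from 7.59 to 9.15 after HD against 9.57 to 10.10 in sham in BALB/c, and from 9.27 to 10.00 against 10.11 to 10.35 in C57BL/6. White adipocyte markers, 5 of them, ran from 12.94 to 13.03 after HD against 12.65 to 12.75 in sham in BALB/c and from 12.71 to 12.99 against 12.80 to 12.96 in C57BL/6, with none called. Macrophage markers, 9 of them, ran from 8.62 to 9.83 against 9.44 to 10.37 in BALB/c and from 8.95 to 9.96 against 9.16 to 9.95 in C57BL/6, also with none called. Over the 43 MG arrays, after removal of group means, Lig3 had a correlation of 0.46 with the luminal, -0.46 with the white adipocyte and -0.50 with the macrophage list, and Mgmt of -0.08, 0.35 and 0.03, where the arrays of a strain share a plate. The part of these cell types in these results was not tested.

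**Figure D5:**
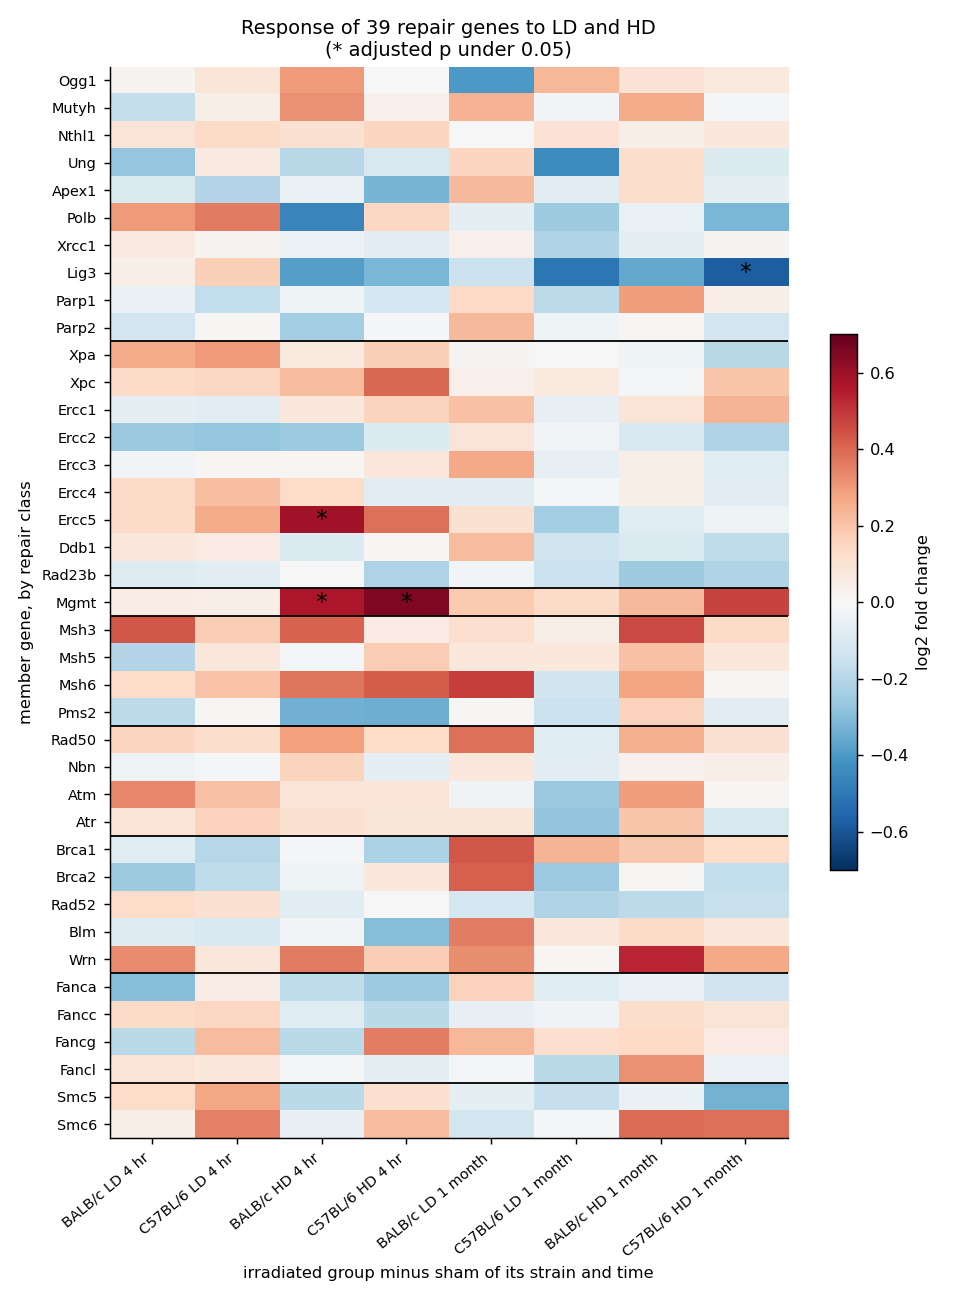
Log2 fold change over sham (colour scale, red higher and blue lower) of the 39 measured repair genes (y axis, in repair classes parted by lines, from base excision and single-strand break repair at the top through nucleotide excision, direct reversal, mismatch repair, break sensing, recombination and Fanconi anemia to the Smc genes) in the 8 dose comparisons (x axis). Stars mark an adjusted p under 0.05: Ercc5 and Mgmt in BALB/c and Mgmt in C57BL/6 at 4 hr after HD, and Lig3 in C57BL/6 at 1 month after HD.

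At 1 month after HD, Lig3 was lower in C57BL/6 and was the only one of the 39 genes called there, beside 0.983% of all genes, with 6 at an unadjusted p under 0.05 (18.4% of all genes). It read 7.27, 7.23, 7.22 and 7.47 after HD, 7.36, 7.58, 7.38 and 7.17 after LD and 7.93, 7.70, 8.09 and 7.79 in sham. Both irradiated groups lay below all sham arrays, by -0.58 (SE 0.13, adjusted p = 0.0402) for HD and by -0.51 (SE 0.13, adjusted p = 0.175) for LD, against the same 4 sham arrays. The call after HD was lost without HD replicates 1, 2 or 3 (adjusted p of 0.105, 0.129 and 0.0716) or sham replicates 1, 2 or 3 (0.0838, 0.0517 and 0.147), of which sham replicate 2 held muscle transcripts. With all probe sets averaged the difference of HD from sham was -0.25 (adjusted p = 0.149). These sham arrays had the highest mean of Lig3 among the MG groups, 7.88, and its part in the difference was not tested.

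In BALB/c none of the 39 genes was called by limma at 1 month after HD, beside 0.0169% of all genes, and 7 had an unadjusted p under 0.05 (10.6% of all genes). Wrn (0.54, SE 0.15, adjusted p = 0.192), Msh3 (0.46, SE 0.14, adjusted p = 0.212), Lig3 (-0.36, SE 0.11, adjusted p = 0.234) and Fancl (0.32, SE 0.11, adjusted p = 0.269) came first. Lig3 read 7.19, 7.05, 7.27 and 7.003 after HD and 7.44, 7.28 and 7.75 in sham. Mgmt at this time had a log2 fold change of 0.23 (SE 0.14, adjusted p = 0.602) in BALB/c and 0.47 (SE 0.13, adjusted p = 0.0693) in C57BL/6. HD against LD at 1 month gave no call in BALB/c, beside 0.00847% of all genes. At an unadjusted p under 0.05 limma gave 6 repair genes there (10.6% of all genes), led by Ddb1 at -0.32, SE 0.09, Ogg1 at 0.50, SE 0.17, Brca2 at -0.41, SE 0.14, and Fancl at 0.32, SE 0.12. In C57BL/6 none was called either, and 5 had an unadjusted p under 0.05 in limma (9.35% of all genes), led by Mgmt at 0.34, SE 0.13, Ercc1 at 0.29, SE 0.11, Smc6 at 0.40, SE 0.16, and Parp1 at 0.23, SE 0.09.

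With both strains averaged, HD at 1 month called 4 of the 39 genes, beside 6.17% of all genes. Lig3 was lower (-0.47, SE 0.09, adjusted p = 0.00279), a call kept with each of the 15 arrays left out and lost with all probe sets averaged (-0.16, adjusted p = 0.103). Mgmt (0.35, SE 0.10, adjusted p = 0.0268), Msh3 (0.30, SE 0.08, adjusted p = 0.0278) and Wrn (0.40, SE 0.11, adjusted p = 0.0281) were higher, and with all probe sets averaged Msh3 was at 0.14 (adjusted p = 0.0824). At this time Mgmt read 5.27, 5.46, 5.26 and 5.64 after HD and 5.17, 5.02 and 5.35 in sham in BALB/c, and 5.48, 5.47, 5.34 and 5.46 after HD and 5.19, 4.75, 4.62 and 5.29 in sham in C57BL/6. HD and sham overlapped in BALB/c and did not in C57BL/6.

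Msh3 read 6.77, 7.01, 6.88 and 6.92 after HD and 6.42, 6.33 and 6.55 in sham in BALB/c, apart from each other, and 6.50, 6.23, 6.47 and 6.32 after HD and 6.27, 6.25, 6.14 and 6.35 in sham in C57BL/6, overlapping. Wrn read 6.35, 6.26, 6.66 and 6.31 after HD and 6.20, 5.55 and 5.82 in sham in BALB/c, and 6.78, 6.71, 6.59 and 6.87 after HD and 6.47, 6.18, 6.62 and 6.63 in sham in C57BL/6. HD was above sham in BALB/c and overlapped with it in C57BL/6. Without the arrays that held transcripts of another tissue Wrn was at 0.29 (adjusted p = 0.159).

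The 3 higher calls at 1 month were each lost without any of several single arrays. Mgmt was lost without C57BL/6 HD replicate 2, C57BL/6 sham replicates 2 or 3, BALB/c HD replicates 2 or 4 or BALB/c sham replicates 1 or 2 (adjusted p from 0.0508 to 0.0803). Msh3 was lost without C57BL/6 HD replicates 1 or 3, C57BL/6 sham replicate 3, BALB/c HD replicates 2 or 4 or BALB/c sham replicates 1 or 2 (adjusted p from 0.0513 to 0.0691). Wrn was lost without C57BL/6 sham replicate 2, BALB/c HD replicate 3 or BALB/c sham replicates 2 or 3 (adjusted p from 0.0525 to 0.101). With the plate column as a covariate none of the 4 calls remained. Lig3 at -0.43 (SE 0.20, adjusted p = 0.615) and Msh3 at 0.28 (SE 0.19, adjusted p = 0.752) had differences near those without it and larger errors, while Wrn fell to 0.094 (adjusted p = 0.954) and Mgmt turned to -0.068 (adjusted p = 0.963). Luminal markers, 10 measured, were called lower for 5 genes at this time in both strains together, with a median of -0.71. B cell markers, 8 measured, had a median of 0.53 with none called, and their mean per array reached 7.60 in BALB/c HD MG and 5.95 in C57BL/6 HD MG, against at most 4.62 and 4.45 in sham. Their part in the results was not tested.

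LD in both strains together called none of the 39 genes by limma. At 4 hr, where 0.0678% of all genes were called, 6 repair genes had an unadjusted p under 0.05 (10.6% of all genes), with Msh3 at 0.30 (SE 0.09, adjusted p = 0.137), Polb at 0.33 (SE 0.11, adjusted p = 0.219), Xpa at 0.28 (SE 0.10, adjusted p = 0.262) and Ercc2 at -0.26 (SE 0.09, adjusted p = 0.268) first. At 1 month 3 had one (10.2% of all genes), with Brca1 at 0.34 (SE 0.08, adjusted p = 0.128), Lig3 at -0.33 (SE 0.10, adjusted p = 0.215), Blm, a RecQ helicase, at 0.22 (SE 0.10) and Rad52, a strand annealing protein, at -0.16 (SE 0.08) first.

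The sham MG arrays were also compared between the times. In C57BL/6, Polb was higher at 1 month than at 4 hr and was the only call, beside 3.03% of all genes. It read 7.12, 7.35, 7.46 and 7.44 at 1 month and 7.07, 6.46 and 6.41 at 4 hr, apart by little at replicate 1 of each, and the difference was 0.70 (SE 0.14, adjusted p = 0.0177). The call was lost without 4 hr replicates 2 or 3 (adjusted p of 0.211 and 0.0507) or 1 month replicates 2 or 3 (0.054 and 0.0626). Lig3 (0.49, SE 0.14, adjusted p = 0.0574) and Ercc5 (0.37, SE 0.12, adjusted p = 0.0905) followed and did not pass. Brown adipocyte markers, 5 of them, moved with the time in these arrays, with array means of 8.18 to 11.19 at 4 hr and 7.197 to 7.94 at 1 month, and 2 were called lower at 1 month. Their part in the result was not tested. In BALB/c limma called none, with 4 at an unadjusted p under 0.05 (6.92% of all genes) and Brca1 (-0.31, SE 0.11), Rad52 (0.28, SE 0.10), Brca2 (-0.33, SE 0.13) and Pms2 (-0.30, SE 0.14) first.

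Of 58 other measured genes of the same pathways, 5 differed between the strains in sham MG, a share near the 8.83% of all genes. Parp3, a poly(ADP-ribose) polymerase, was lower in BALB/c (-0.87, SE 0.10, adjusted p = 1.14e-04), as were Nsmce2, a subunit of the Smc5/Smc6 complex (-0.57, SE 0.09, adjusted p = 0.00164), and Gtf2h4, a TFIIH subunit (-0.38, SE 0.08, adjusted p = 0.00802), and 2 genes were higher. In blood none of the 58 was called by limma, and 8 had an unadjusted p under 0.05, beside 8.54% of all genes. At 4 hr after HD in BALB/c 3 were lower and 1 higher, beside 5.91% of all genes called, with H2ax, the histone phosphorylated at breaks (-0.94, SE 0.25, adjusted p = 0.0372), Lig1, the replicative ligase (-1.03, SE 0.28, adjusted p = 0.0382), and Trp53bp1, a break repair scaffold (-0.49, SE 0.13, adjusted p = 0.0428), lower. In C57BL/6 none was called by limma at 4 hr (4 at an unadjusted p under 0.05, beside 13.8% of all genes), and at 1 month after HD the thymine glycosylase Tdg alone was lower (-0.44, SE 0.10, adjusted p = 0.043), beside 0.983% of all genes.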

How the data were processed

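RNA of 43 mammary glands and 8 blood samples, 1 array per mouse, was measured on Affymetrix HT_MG-430A arrays. The authors normalized the arrays by RMA and deposited log2 signals per probe set, which were used as given. Probe sets were named through the platform annotation. The 41 genes and all lists were chosen with earlier results of these data known. Tests used limma 3.58.1 in R 4.3.3, with a mean per group within the MG arrays of a strain, the sham MG arrays, the 30 irradiated MG arrays, all 43 MG arrays or the blood arrays. Benjamini-Hochberg adjustment ran over all probe sets, and a call was an adjusted p under 0.05. In a comparison with calls, up to 8 genes of smallest p were named, with their values in every array for those most turned on, and otherwise the 4 of smallest p, besides Msh5, Smc6 and Rad23b. Other pathway genes were named by the 3 smallest p. There were 20 planned comparisons and 5 added after results were seen, the strain difference in irradiated MG and the averages over both strains, each under up to 9 alternatives and with each array left out. The fits were tested on simulated data. Figures were drawn with matplotlib 3.10.9, and tables were made with numpy 2.4.6 and pandas 2.3.3 under Python 3.11. The p-values measure the spread between arrays.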

Additional observations from a re-analysis of the deposited data

Results flagged for a closer look

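Of 145 sets of arrays of 1 group examined for a single gene, 10 held an array far from the rest, judged by its gap to the nearest array as a share of the group's range. Chance gives this in about 1 in 20 groups. No cause was tested for any of them.

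Among the genes called after HD, the share was 0.835 for Lig3 in BALB/c at 4 hr after HD, where replicate 4 read 6.847 and the next array 7.048. For Mgmt in C57BL/6 it was 0.903 at 4 hr after LD, with replicate 2 at 4.901 below 5.264, and 0.836 at 1 month after HD, with replicate 3 at 5.342 below 5.455. For Xpc at 4 hr after HD it was 0.905 in BALB/c, with replicate 3 at 7.781 above 7.666, and 0.946 in C57BL/6, with replicate 4 at 7.756 below 7.889.

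For Ung, the uracil glycosylase, the share in C57BL/6 at 1 month was 0.949 in sham, with replicate 1 at 6.671 above 6.205, and 0.863 after LD, with replicate 1 at 5.609 below 5.935. For Polb in C57BL/6 at 4 hr after HD it was 0.867, with replicate 2 at 6.629 below 6.825. For Rad23b in C57BL/6 at 4 hr after LD it was 0.855, with replicate 4 at 8.372 above 8.156. For Msh3 in C57BL/6 at 1 month after LD it was 0.843, with replicate 1 at 6.031 below 6.355.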

How the results depend on the processing

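Each value below is a number of called repair genes unless said otherwise, and the cause of a change was not tested. With the plate column of each array as a covariate, the numbers were 0 for the strains in blood, for HD against sham at 4 hr in BALB/c, in C57BL/6 and in both strains, for HD at 1 month in C57BL/6 and in both strains, and for HD against LD at 4 hr in C57BL/6, and 1 for HD against LD at 4 hr in BALB/c. Without the arrays that held transcripts of another tissue, they were 1 for HD against sham and 1 for HD against LD at 4 hr in BALB/c, and 0 for HD at 1 month and 0 for time in sham in C57BL/6. The 1 for HD against sham was neither Ercc5 (adjusted p = 0.0778 in limma) nor Mgmt (adjusted p = 0.134). With the arrays of the compared groups alone, the numbers were 1 for HD at 4 hr in BALB/c and 0 for HD at 1 month, for HD against LD at 4 hr and for time in sham in C57BL/6. With all 43 MG arrays in 1 fit, they were 2 for HD against LD at 4 hr and 2 for time in sham in C57BL/6. With dim probe sets left out, they were 3 for the strains in sham MG, 8 in irradiated MG, 0 for HD at 4 hr and 2 for time in sham in C57BL/6, where fewer genes were tested. With array weights, they were 3 for the strains in blood and 2 for HD against LD at 4 hr in C57BL/6. With the probe sets of a gene averaged, they were 2 for the strains in blood, 0 for HD at 1 month in C57BL/6 and 2 for HD at 1 month in both strains.

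With 1 array left out, the numbers ran from 4 to 5 for the strains in sham MG, 10 to 15 in irradiated MG and 0 to 1 in blood. They ran from 0 to 3 for HD and 1 to 3 for HD against LD at 4 hr in BALB/c. In C57BL/6 they ran from 0 to 1 for HD at 4 hr, 0 to 2 for HD at 1 month, 0 to 2 for HD against LD at 4 hr and 0 to 2 for time in sham. In both strains they ran from 4 to 7 for HD at 4 hr and 1 to 5 for HD at 1 month, and all other comparisons gave 0 with any array left out.

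Log2 differences that turned were Rad23b in blood (0.43), Smc6 after LD at 4 hr in C57BL/6 (-0.10), Ercc5 after LD at 1 month in C57BL/6 (0.0058) and Mgmt after HD at 1 month in both strains (-0.068), all with the plate column, and, with probe sets averaged, Brca1 after LD at 1 month in C57BL/6 (-0.045) and Msh3 in the strain difference of the response to LD at 4 hr (-0.030). None of the first 3 or the last 2 was called. Probe sets averaged brought Msh5 past the threshold for the strains in sham MG (0.48, adjusted p = 0.00232) and blood (1.11, adjusted p = 0.0251).

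Replicate numbers did not pair the arrays, since same-numbered arrays of different groups deviated together with a mean correlation of 0.0145 in BALB/c MG, 0.0124 in C57BL/6 MG and -0.1281 in blood. With a replicate block, the numbers were 0 for the strains in blood (Smc6 2.36, adjusted p = 0.21) and 0 for HD at 1 month in C57BL/6 (Lig3 -0.58, adjusted p = 0.0514), and Rad50 between the strains in sham MG had an adjusted p of 0.0711.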
